A study of Homo sapiens with 8 samples.

Results

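BNIP3, BNIP3L, FUNDC1, FAM162A, PINK1 and BCL2L13 encode proteins of the mitochondrial membranes, and they were taken from the tables by symbol. All 6 were listed among the 23193 genes of the deposited count tables, and all 6 passed the filter on low counts for gene bodies and for transcription start site (TSS) regions. The counts came from PRO-seq, a nuclear run-on assay that maps transcriptionally engaged RNA polymerase II, in HCT116 colorectal carcinoma cells. Wild-type (WT) cells and HIF1A-/- cells, in which exons of HIF1A had been disrupted by homologous recombination, were kept in normoxia or placed in 1% O2 for 90 min, and all 4 groups, controls included, received the vehicle DMSO. Each group had 2 libraries, described by the study as independent biological duplicates. The HIF1A-/- cells were a single engineered line, so genotype and any other property of that line cannot be told apart.

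Mitophagy is the selective removal of mitochondria by autophagosomes. BNIP3, its relative BNIP3L (also called NIX), FUNDC1 and BCL2L13 sit in the outer mitochondrial membrane and carry a motif that binds ATG8-family proteins on the autophagosome, whereas PINK1 is a kinase that accumulates on damaged mitochondria and recruits the ubiquitin ligase Parkin. FAM162A, also known as HGTD-P, is a mitochondrial protein first described as a hypoxia-responsive target of HIF1A. BNIP3 and BNIP3L are textbook HIF1A targets in hypoxic tumour cells, and HIF1 binds DNA at a short core that reads ACGTG or GCGTG.

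Transcription of BNIP3, BNIP3L and FAM162A rose strongly in WT cells after 90 min of hypoxia, and in HIF1A-/- cells no rise was called. FUNDC1, PINK1 and BCL2L13 changed far less and were not called in either line, except PINK1 in WT cells once the replicate number was a block. BNIP3 and FAM162A already held engaged polymerase at the TSS in normoxia, as did FUNDC1, which was not called. The pausing indices of BNIP3 and FAM162A fell in WT hypoxia. No TSS region of the 6 was called in WT hypoxia in the unpaired fit, and the TSS region of BNIP3L had few reads. The promoter sequences, the values in each library and the tests follow.

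The bases just before the transcription start were searched for the HIF1 core sequences. Whether a core bears on a change over the gene body was not tested. RefSeq promoters (assembly GRCh38.p14) were held for 4 of the 6 genes, namely BNIP3, FAM162A, FUNDC1 and BCL2L13, and BNIP3L and PINK1 are named only. The 250 bases upstream of the start are written 5′ to 3′ on the strand of the gene, and capitals mark ACGTG and GCGTG on either strand (CACGT and CACGC when the core lies on the other strand). Each window matched GRCh37, the build of the counts, at 1 place, and FUNDC1 is printed as a promoter with no core in the window.
BNIP3 (chr10:133795428-133795677, minus strand): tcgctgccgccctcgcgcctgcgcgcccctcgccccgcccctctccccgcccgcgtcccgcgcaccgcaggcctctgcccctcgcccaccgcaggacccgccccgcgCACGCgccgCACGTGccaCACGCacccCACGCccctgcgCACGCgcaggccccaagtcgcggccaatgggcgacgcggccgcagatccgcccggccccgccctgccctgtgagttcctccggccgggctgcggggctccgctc
FAM162A (chr3:122102779-122103028, plus strand): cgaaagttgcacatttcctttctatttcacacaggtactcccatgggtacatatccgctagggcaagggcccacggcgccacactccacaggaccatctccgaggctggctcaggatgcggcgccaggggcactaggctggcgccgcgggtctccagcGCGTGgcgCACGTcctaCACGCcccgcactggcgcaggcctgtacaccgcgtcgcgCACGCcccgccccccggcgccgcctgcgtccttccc
FUNDC1 (chrX:44402106-44402355, minus strand): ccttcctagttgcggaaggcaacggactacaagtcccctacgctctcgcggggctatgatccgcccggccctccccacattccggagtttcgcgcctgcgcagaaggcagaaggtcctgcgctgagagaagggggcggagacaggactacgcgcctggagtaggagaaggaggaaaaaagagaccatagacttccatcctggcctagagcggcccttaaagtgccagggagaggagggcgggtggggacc

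In the BNIP3 window 6 cores were found, 2 of ACGTG and 4 of GCGTG, all between 104 and 143 bases before the start. Its ACGTG cores were the same site read on both strands, since CACGTG is a palindrome and also the E-box that other factors bind. In the FAM162A window there were 4 cores, 1 of ACGTG and 3 of GCGTG, between 36 and 92 bases before the start. Among 35116 RefSeq promoters cut to the same length, 43.2% held at least 1 core (18.5% ACGTG, 32.2% GCGTG), 6.3% held CACGTG, 3.22% held as many cores as FAM162A or more, and 0.646% as many as BNIP3 or more. FUNDC1 had no core in this window, and at the annotated start of the canonical BCL2L13 transcript there was 1. The BCL2L13 window nearest the start used for counting had none, and no BCL2L13 window is printed. The windows differ in base composition, with 81.6% G and C for BNIP3, 68.4% for FAM162A and 62.4% for FUNDC1, so a core made largely of C and G has unequal odds of occurring in them. A core in a window is a match of letters and not a binding site.

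Gene body counts summed to between 18125234 and 23622392 in the 8 libraries. TSS counts varied more, from 2783581 in HIF1A-/- normoxia replicate 1 to 5966348 in WT hypoxia replicate 2. HIF1A itself was transcribed in every library at 129.6 to 175.3 CPM (counts per 1000000 counted) over the gene body; the deletion removes only a short part of the locus, so these counts do not check the genotype labels. The epithelial genes KRT8, KRT18, KRT19, EPCAM and CDH1 were transcribed, as fits a carcinoma line, while the colonic markers VIL1, CDH17 and CEACAM5 were near 0. Of 9 markers of other cell types 4 passed the filter, namely the mesenchymal VIM, COL1A1 and ACTA2 and the endothelial CDH5. COL1A1 stood at 1.21 to 2.98 RPKM, with up to 1188 reads, against 0.707 to 1.51 RPKM for CDH1. The highest counts were 466 reads for ACTA2, 214 for VIM and 39 for CDH5. PTPRC, COL1A2, PECAM1, CD3E and LYZ had 10 reads or fewer in each library. In WT cells the 9 summed to 46.9 to 57.5 CPM (normoxia) and 58.7 to 80.0 CPM (hypoxia). The sums in HIF1A-/- cells were 34.1 to 57.4 CPM (normoxia) and 37.9 to 65.1 CPM (hypoxia). The part of these markers in the results was not tested.

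The gene body of a gene runs from 1 kb after its start to the end of its shortest annotated form, and its level is given as CPM scaled by TMM factors or, for comparison between genes, per kilobase (RPKM). On GRCh37 the counted bodies were chr10:133781186-133794516 for BNIP3 (minus strand), chr8:26248906-26270645 for BNIP3L (plus), chrX:44382884-44401220 for FUNDC1 (minus), chr3:122104023-122128961 for FAM162A (plus), chr1:20960948-20978004 for PINK1 (plus) and chr22:18190424-18213621 for BCL2L13 (plus). They measured 13.3 to 24.9 kb, and GENCODE exons of these genes covered between 4.76% (FUNDC1) and 36.97% (FAM162A) of them, so most counted bases were intronic. The start that the deposited tables use lay within 116 bases of the canonical GENCODE start for BNIP3, FUNDC1, FAM162A and PINK1. For BNIP3L it lay 7335 bases downstream of the canonical start, 27 bases from the nearest annotated start of a shorter transcript, and for BCL2L13 it lay 67900 bases downstream, 53 bases from an annotated start. The TSS values of BNIP3L and BCL2L13 therefore describe internal starts.

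In WT cells, the BNIP3 gene body stood at 1.20 and 0.919 RPKM in the normoxia libraries (replicates 1 and 2) and at 6.45 and 7.01 RPKM in the hypoxia libraries. Both hypoxia libraries lay far above both normoxia libraries. Its fitted change was 6.34-fold, a log2 fold change of 2.66 (SE 0.23), with an adjusted p of 0.00633 (edgeR quasi-likelihood test, Benjamini-Hochberg adjustment over 16686 gene bodies). BNIP3L, the lowest of the 6 in normoxia, stood at 0.260 and 0.340 RPKM there and at 1.84 and 3.27 RPKM in hypoxia. The groups did not overlap, and the hypoxia libraries differed from each other more than for BNIP3. The fitted change of BNIP3L was the largest of the 6 and the least precise of the called ones, 8.52-fold (log2 3.09, SE 0.51, adjusted p = 0.0847 in edgeR).

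FAM162A stood at 1.17 and 1.15 RPKM in WT normoxia and at 5.37 and 7.95 RPKM in WT hypoxia, again without overlap. Its change was 5.74-fold (log2 2.52, SE 0.20, adjusted p = 0.00537 in edgeR). At an FDR of 10%, the threshold for a call throughout, 3 of the 6 genes were called higher in WT hypoxia, against 72 of 16686 gene bodies (0.431%). By size of the log2 fold change BNIP3L ranked 12, BNIP3 20 and FAM162A 25 among all gene bodies tested, and by p-value FAM162A ranked 5, BNIP3 7 and BNIP3L 61. Within replicate number 1 the 3 genes changed by 5.37-fold (BNIP3), 7.09-fold (BNIP3L) and 4.60-fold (FAM162A), and within number 2 by 7.63-fold, 9.60-fold and 6.90-fold. These calls rest on both normoxia libraries: without WT normoxia replicate 1 or replicate 2 no gene body of any gene was called, with adjusted p of 0.116 and 0.155 for BNIP3 and FAM162A and fitted log2 changes of 2.49 to 2.87 and 2.51 to 2.53. BNIP3L also lost its call without WT hypoxia replicate 1 (log2 3.45, adjusted p = 0.123) or replicate 2 (2.62, adjusted p = 0.664).

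The other 3 genes showed no call. FUNDC1, whose product is regulated by phosphorylation when oxygen falls, stood at 0.768 and 0.771 RPKM in WT normoxia and at 0.692 and 0.638 RPKM in WT hypoxia. Both hypoxia values lay below both normoxia values, with a log2 difference of -0.21 (approximate 95% interval, 1.96 SE to each side, from -0.54 to 0.12, adjusted p = 0.897 in edgeR). Intervals given in this way are normal approximations, and they are narrower than the quasi-likelihood test implies with 2 libraries per group. BCL2L13 stood at 1.19 and 1.26 RPKM in normoxia and at 1.26 and 1.58 RPKM in hypoxia, a log2 difference of 0.22 (-0.14 to 0.57, adjusted p = 0.897). The intervals of these genes lie below the changes of BNIP3, BNIP3L and FAM162A.

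PINK1 stood at 0.788 and 1.22 RPKM in WT normoxia and at 1.25 and 1.95 RPKM in WT hypoxia. Replicate 2 was higher than replicate 1 in all 4 groups, and both pairs moved by a similar amount, 1.59-fold and 1.61-fold. In the unpaired fit the log2 difference was 0.68 (-0.17 to 1.54, adjusted p = 0.897 in edgeR); in the fit with the replicate number as a block it was 0.68 (SE 0.14) with an adjusted p of 0.0604, and PINK1 was then called, when 3.73% of all gene bodies were called higher. In HIF1A-/- cells PINK1 stood at 0.805 and 1.69 RPKM before hypoxia and at 1.20 and 2.20 RPKM after it, or 0.58 and 0.38 on the log2 scale within the pairs, and the fitted log2 difference of 0.45 was uncalled without and with the block (adjusted p = 1.0 and 0.358). The difference in its response between the genotypes was 0.23 (SE 0.61, adjusted p = 0.9999).

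**Figure D1:**
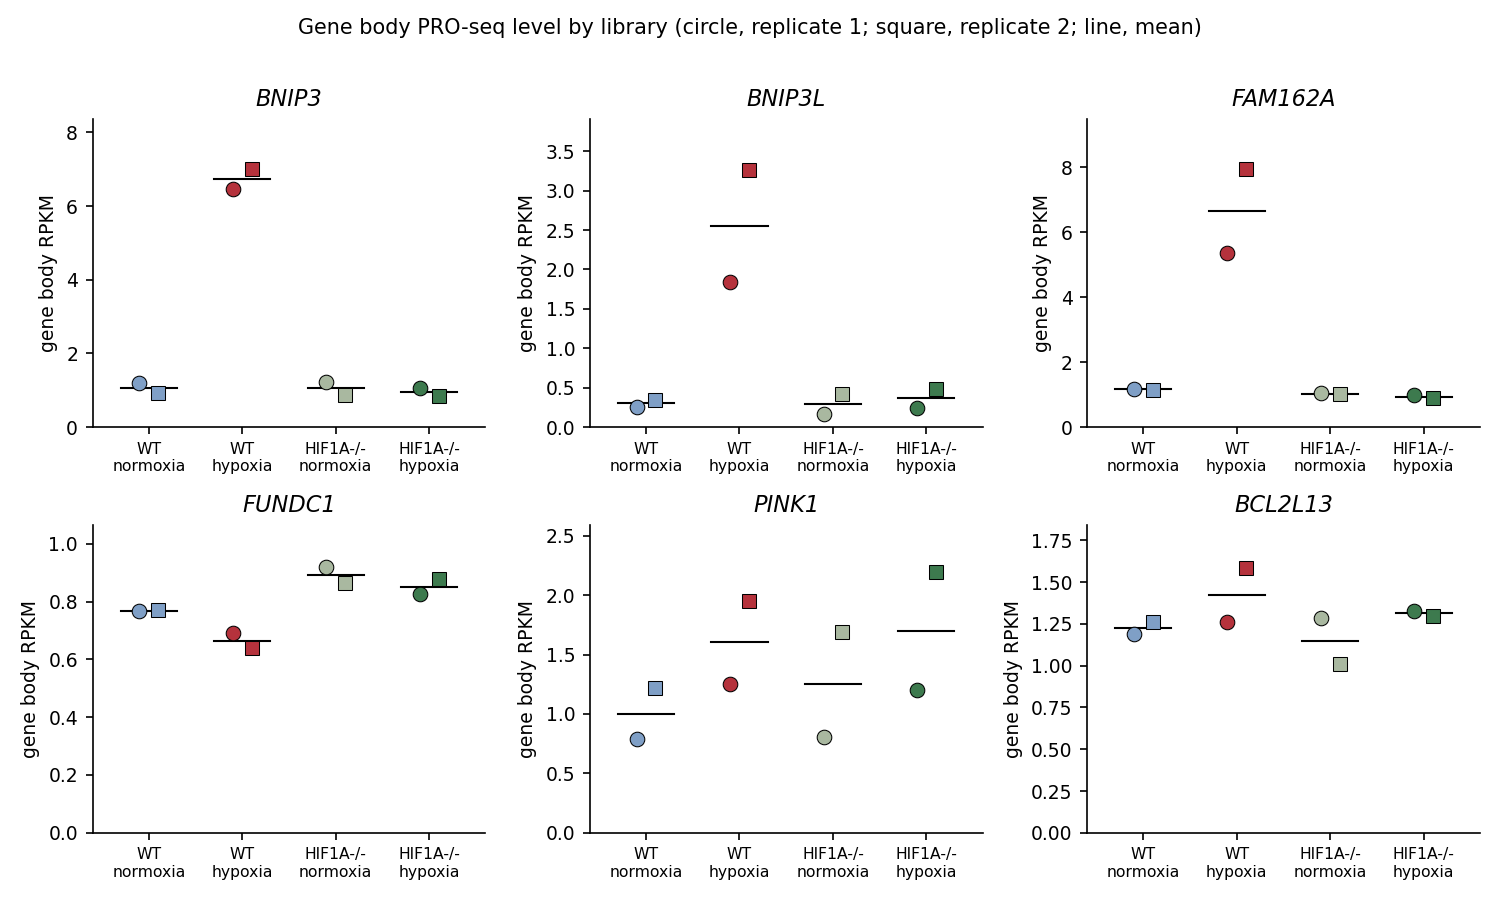
Gene body level of the 6 genes in RPKM (vertical axes, each panel with its own scale from 0) in the 4 groups, with a circle for replicate 1, a square for replicate 2 and a line at the mean. BNIP3, BNIP3L and FAM162A stand apart in WT hypoxia alone (means of 6.73, 2.55 and 6.66 RPKM), while PINK1 replicate 2 lies above replicate 1 in every group.

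In HIF1A-/- cells none of the 6 gene bodies was called in hypoxia, and none of all 16686 was (0% higher and 0% lower by edgeR; 347 had an unadjusted p under 0.05, none of them from the 6, and DESeq2 called 8, none of them from the 6). In these cells BNIP3 stood at 1.24 and 0.867 RPKM before hypoxia and at 1.05 and 0.856 RPKM after it, overlapping, with a log2 difference of -0.14 (-0.58 to 0.30). FAM162A stood at 1.04 and 1.02 RPKM in normoxia and at 0.990 and 0.879 RPKM in hypoxia, slightly lower in both libraries, with a log2 difference of -0.14 (-0.52 to 0.24). BNIP3L stood at 0.170 and 0.413 RPKM in normoxia and at 0.242 and 0.486 RPKM in hypoxia, with a log2 difference of 0.32 and a wide interval (-0.64 to 1.29). All 3 intervals end below the lower bounds of the WT changes, which were 2.21, 2.13 and 2.09 for BNIP3, FAM162A and BNIP3L.

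The difference in the hypoxic response between WT and HIF1A-/- cells was tested as an interaction. It was called for BNIP3 (log2 2.81, SE 0.32, adjusted p = 0.0616) and FAM162A (log2 2.66, SE 0.28, adjusted p = 0.0616), which were 2 of the 9 gene bodies called in the whole table (0.0539%, edgeR). For BNIP3L the difference was of similar size, 2.77 (SE 0.70), and was not called (adjusted p = 0.9999); with the replicate block, which called 0.384% of all gene bodies, it was 2.70 (SE 0.28, adjusted p = 0.0101), and DESeq2 called it too (adjusted p = 0.0122). For the pair that was called, leaving out either WT normoxia library or either HIF1A-/- hypoxia library ended both calls (adjusted p from 0.191 to 0.506), leaving out WT hypoxia replicate 1 ended that of BNIP3 (0.171), and leaving out WT hypoxia replicate 2 ended both (0.314 and 0.268), with log2 differences between 2.35 and 3.03 throughout. FUNDC1 and BCL2L13 differed by -0.14 and 0.02 between the genotypes.

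**Figure D2:**
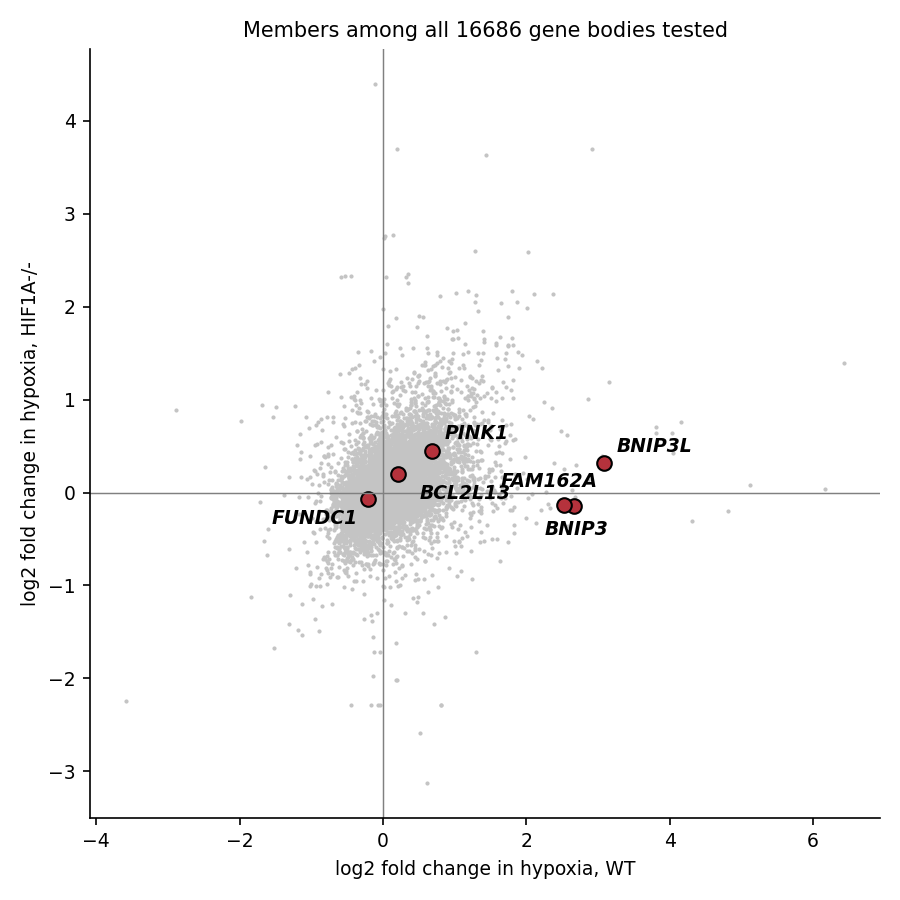
Fitted log2 fold change of gene bodies in hypoxia in WT cells (horizontal axis) and in HIF1A-/- cells (vertical axis), with every tested gene in grey and the 6 genes in red. BNIP3, BNIP3L and FAM162A lie at 2.52 to 3.09 on the horizontal axis and between -0.14 and 0.32 on the vertical one, and the other 3 lie inside the cloud.

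Before hypoxia the genotypes did not differ detectably at these genes. In normoxia the log2 difference of HIF1A-/- from WT was -0.01 for BNIP3 (-0.45 to 0.42), -0.04 for BNIP3L (-1.02 to 0.94), -0.17 for FAM162A (-0.55 to 0.21), 0.21 for FUNDC1, 0.32 for PINK1 and -0.10 for BCL2L13. No member was called by edgeR or DESeq2 and none had an unadjusted p under 0.05, against 121 gene bodies higher (0.725%) and 176 lower (1.05%) in HIF1A-/- cells. In hypoxia 3 of the 6 were lower in HIF1A-/- cells, against 466 gene bodies called lower (2.79%), and none was higher, against 245 (1.47%). The log2 differences were -2.82 for BNIP3 (adjusted p = 0.00131), -2.81 for BNIP3L (adjusted p = 0.0304) and -2.83 for FAM162A (adjusted p = 8.16e-04, edgeR), or 0.141, 0.143 and 0.140 of the WT level. The call of BNIP3L was lost without WT hypoxia replicate 2 (-2.34, adjusted p = 0.217) or HIF1A-/- hypoxia replicate 1 (-2.39, adjusted p = 0.170). FUNDC1 was at 0.825 and 0.878 RPKM in HIF1A-/- hypoxia against 0.692 and 0.638 in WT hypoxia, a log2 difference of 0.36 that was not called (adjusted p = 0.362). These genotype comparisons share their libraries with the comparisons within each line.

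Summed over BNIP3, BNIP3L, FUNDC1, PINK1 and BCL2L13, the transcription of this set of mitophagy genes amounted to 4.21 and 4.51 RPKM in WT normoxia and to 11.5 and 14.5 RPKM in WT hypoxia. The sum in HIF1A-/- cells was 4.41 and 4.85 RPKM before hypoxia and 4.65 and 5.72 RPKM after it. BNIP3 and BNIP3L together made up 34.7% and 27.9% of the sum in WT normoxia and 72.1% and 71.1% in WT hypoxia. In HIF1A-/- cells they held 31.8% and 26.4% before hypoxia and 27.8% and 23.5% after it. In WT normoxia the shares of BCL2L13 (28.3% and 28.0%), BNIP3 (28.5% and 20.4%) and PINK1 (18.7% and 27.0%) overlapped, so their order in normoxia is not settled by these libraries, and BNIP3L was lowest in both (6.18% and 7.55%).

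**Figure D3:**
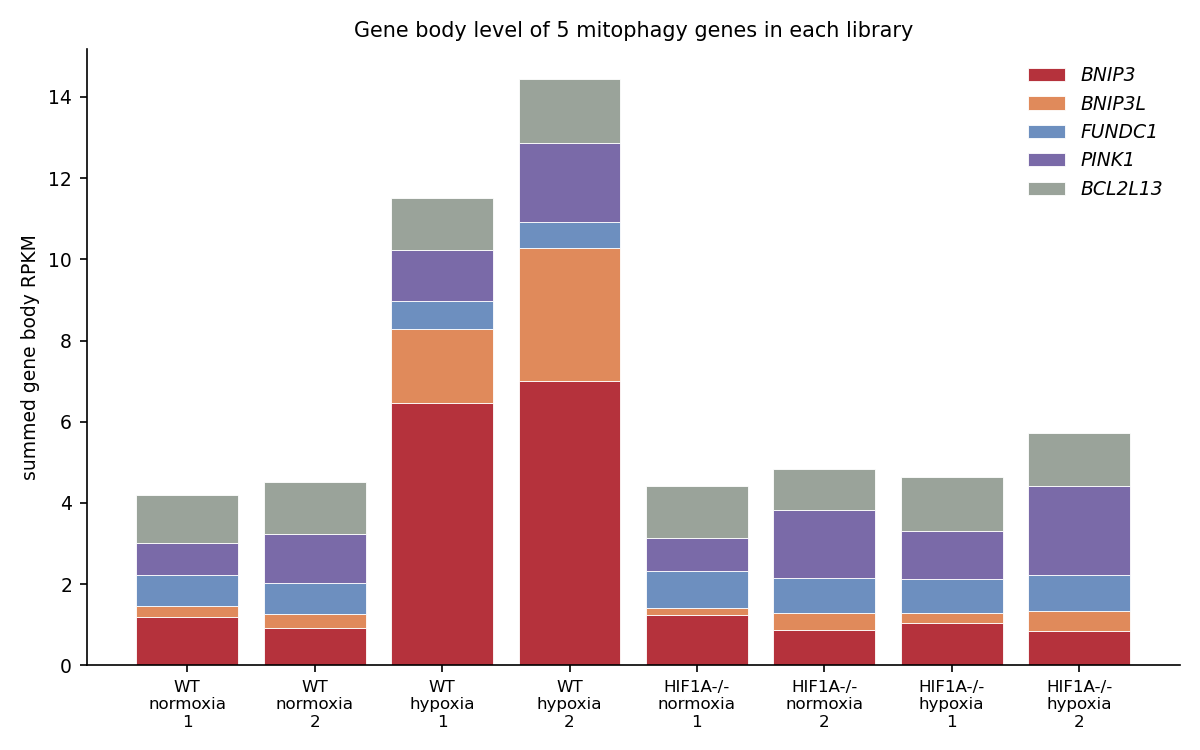
Stacked bars give the gene body level in RPKM of BNIP3, BNIP3L, FUNDC1, PINK1 and BCL2L13 in each of the 8 libraries. The WT hypoxia bars reach 11.5 and 14.5 RPKM, mostly BNIP3 and BNIP3L, and the other 6 bars end between 4.21 and 5.72 RPKM.

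Reads at the TSS region, from 50 bases before to 500 bases after the start used for counting, measured polymerase near that start. For BNIP3L and BCL2L13 this is the internal start described above. In WT cells BNIP3 had 171 and 88 reads there under normoxia against 201 and 166 under hypoxia, or 38.0 and 23.0 CPM against 42.2 and 28.4 CPM. These values overlapped, and the log2 difference was 0.21 (-0.41 to 0.82, adjusted p = 0.935 in edgeR). FAM162A had the highest TSS level of the 6, 115.3 and 127.4 CPM in WT normoxia and 178.8 and 188.3 CPM in WT hypoxia, without overlap. Its log2 difference of 0.60 (SE 0.15) was not called (adjusted p = 0.922); with the replicate block, which called 0.789% of all TSS regions higher, it was 0.60 with an adjusted p of 0.0290.

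The TSS region of BNIP3L was sparse. In WT cells 7 and 3 reads under normoxia compared with 30 and 68 under hypoxia, and in HIF1A-/- cells 2 and 4 compared with 4 and 11. The log2 difference in WT cells was 2.89 (SE 0.58, adjusted p = 0.378 in edgeR), and with the replicate block 2.82 (SE 0.53, adjusted p = 0.00853). Thus no TSS region of the 6 was called in WT hypoxia in the unpaired fit, against 7 of 15212 called higher (0.046%); BNIP3L and FAM162A had an unadjusted p under 0.05, and DESeq2 called none of the 6. In HIF1A-/- cells no TSS region of the 6 was called either, and none of all 15212 was (edgeR and DESeq2). An unadjusted p under 0.05 was found for 135 of all TSS regions and for none of the 6 (edgeR). FUNDC1 had 29.4 to 36.7 CPM at the TSS in the WT libraries, PINK1 7.31 to 7.71 CPM and BCL2L13 6.44 to 7.57 CPM. Between the genotypes in hypoxia, FAM162A was lower in HIF1A-/- cells (log2 -0.66, SE 0.15, adjusted p = 0.0699), 1 member against 101 TSS regions called lower (0.664%), and with the replicate block, which called 6.97% of all TSS regions lower, BNIP3L was called as well (-2.16, adjusted p = 0.00671). The call of FAM162A was lost without WT normoxia replicate 2 or any of the 4 hypoxia libraries, where its adjusted p was 0.105 to 0.710.

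The pausing index is read density at the TSS relative to that of the gene body, each taken as CPM per base of its own table. It had a median of 44.4 to 49.1 across 14494 genes in the 8 libraries. BNIP3 began near that median, at 59.8 and 45.6 in WT normoxia, and stood at 11.9 and 7.06 in WT hypoxia. The FAM162A index, the highest of the 6, fell from 186.4 and 201.9 to 60.7 and 41.2 in the same cells. Neither gene had overlapping values, and both indices fell, by 2.49 (SE 0.29) and 1.93 (SE 0.22) on the log2 scale (adjusted p = 0.00175 for both, edgeR). They were 2 of 27 genes called lower (0.186%). The index uses the same gene body counts, so these calls are not independent of the gene body calls. In HIF1A-/- cells the BNIP3 index was 60.6 and 53.2 before hypoxia and 45.1 and 52.4 after it, and that of FAM162A was 201.2 and 183.4 before hypoxia and 205.8 and 240.7 after it. Neither was called there, and none of all 14494 genes was.

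Tested between genotypes, the pausing response differed for FAM162A (log2 -2.17, SE 0.31, adjusted p = 0.0657), 1 of 3 genes called in that direction (0.0207%). For BNIP3 the difference of -2.29 (SE 0.42) was not called (adjusted p = 0.172), and with the replicate block, which called 0.138% of all genes in that direction, it was -2.29 (adjusted p = 0.0101). The FAM162A call was lost without either WT normoxia library, WT hypoxia replicate 2, HIF1A-/- normoxia replicate 1 or either HIF1A-/- hypoxia library (adjusted p from 0.106 to 0.678). The BNIP3L index was 11.3 and 4.20 in WT normoxia and 6.24 and 6.21 in WT hypoxia, with a log2 difference of -0.25 (-1.35 to 0.85). It rests on the internal start and on the few reads given above. Polymerase passing through from the canonical start would be counted in both regions. This index therefore cannot show whether BNIP3L differs in pausing from BNIP3 and FAM162A. FUNDC1 kept a high index, 82.0 and 85.9 in WT normoxia and 77.5 and 99.99 in WT hypoxia, while PINK1 (6.87 to 17.6) and BCL2L13 (7.34 to 11.0) stayed below the median of all genes in the WT libraries. The BCL2L13 index also rests on an internal start, so it does not describe pausing at the canonical start.

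**Figure D4:**
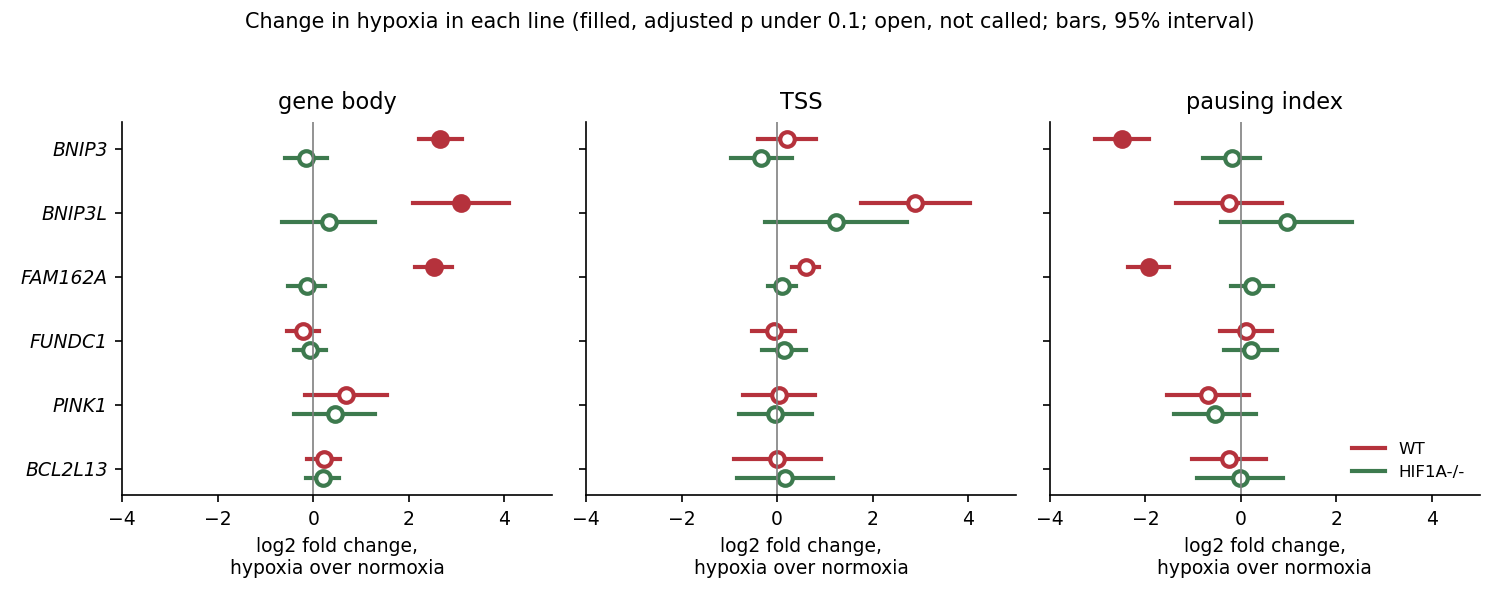
Log2 fold change of hypoxia over normoxia for the gene body, the TSS region and the pausing index of the 6 genes, in WT cells (red) and HIF1A-/- cells (green). Bars give 1.96 SE to each side (approximate 95% interval), and filled points mark adjusted p under 0.1. BNIP3 and FAM162A are filled for the gene body (2.66 and 2.52) and the pausing index (-2.49 and -1.93) and open at the TSS, and BNIP3L lies at 3.09 for the gene body and 2.89 for the TSS.

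**Figure D5:**
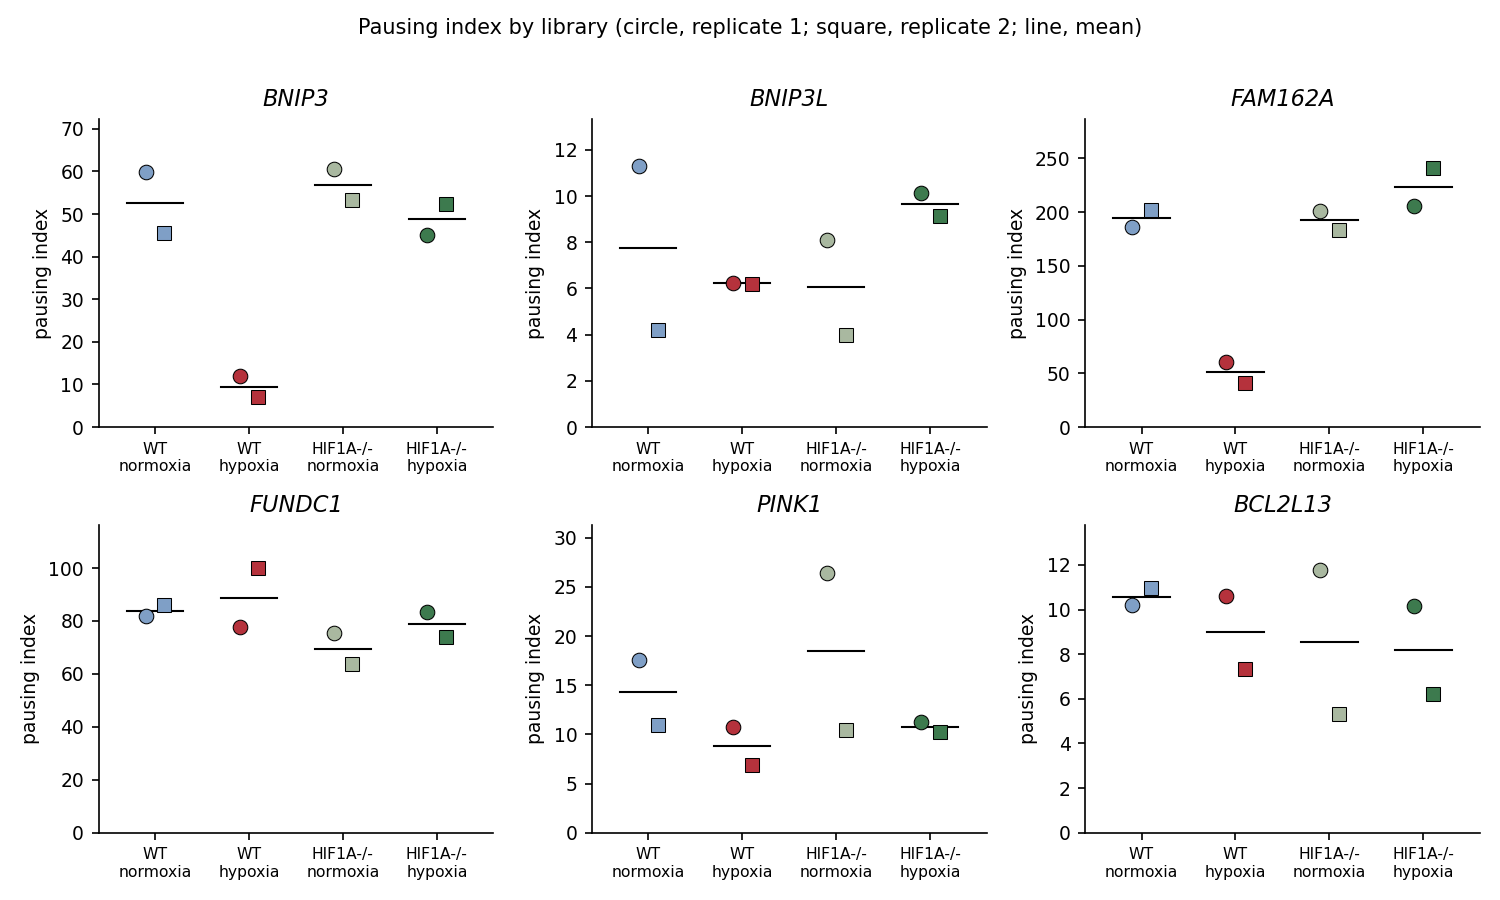
Pausing index of the 6 genes in the 4 groups (vertical axes, each panel with its own scale from 0), with a circle for replicate 1, a square for replicate 2 and a line at the mean. In WT hypoxia BNIP3 lies at 11.9 and 7.06 and FAM162A at 60.7 and 41.2, below every other library of the same gene.

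Genes next to these loci were examined because start sites that face away from each other can share a promoter. CCDC58, a gene on the opposite strand that encodes a mitochondrial protein, starts 944 bases from FAM162A by the starts used for counting. Its gene body stood at 58.5 and 48.7 CPM in WT normoxia and at 83.1 and 86.6 CPM in WT hypoxia, without overlap. HIF1A-/- cells had CCDC58 at 59.3 and 40.8 CPM before hypoxia and at 50.3 and 34.5 CPM after it. The change in WT was 0.66 on the log2 scale (SE 0.24), much less than that of FAM162A, and was called only with the replicate block (adjusted p = 0.897 without it and 0.0647 with it, edgeR). In hypoxia CCDC58 was lower in HIF1A-/- than in WT cells (adjusted p = 0.0823; with the block log2 -1.03, SE 0.15, adjusted p = 0.00330).

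SDAD1P1, a pseudogene on the strand opposite to BNIP3L, starts 101 bases before the canonical BNIP3L start, so its reads lie upstream of the full-length gene and outside its counted body. Its gene body had 6 and 24 reads under normoxia in WT cells against 129 and 379 under hypoxia, and HIF1A-/- cells had 4 and 23 against 9 and 34. Both WT hypoxia libraries lay above all others, with a log2 difference of 3.81 (SE 0.93, adjusted p = 0.401, edgeR) that was called with the replicate block (3.90, SE 0.32, adjusted p = 7.09e-04). Its TSS region went from 113 and 155 reads to 441 and 579 reads in WT cells, while HIF1A-/- cells had 41 and 160 before hypoxia and 80 and 189 after it. Of the other 11 neighbouring genes (PPP2R2D, JAKMIP3, PNMA2, EFHC2, KDM6A, WDR5B, PINK1-AS, CDA, DDOST, ATP6V1E1 and BID) none was called in either line without the block, and CDA (log2 0.52) and BID (-0.45) were called in WT cells with it (adjusted p = 0.0741 and 0.0735). Over all gene bodies, the unpaired fit called 0.431% higher and 0% lower in WT hypoxia and none in HIF1A-/- hypoxia. The block called 3.73% higher and 1.77% lower in WT hypoxia. PINK1-AS overlaps PINK1 on the other strand; the libraries were strand-specific, and whether strand was used when reads were counted is not given in the sources used here.

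Across the 8 libraries, the gene bodies most correlated with BNIP3 (Pearson's r of log2 CPM, a description over 8 points that share the hypoxic contrast) were the glycolytic genes PGAM1 (r = 0.995), LDHA (0.994) and ALDOC (0.993). For FAM162A they were RLF (0.994), ANKRD37 (0.993) and GBE1 (0.992), a zinc-finger gene, an ankyrin-repeat gene and the glycogen branching enzyme. For BNIP3L they were NDRG1 (0.992), a stress-response gene, MXI1 (0.988), a MYC antagonist, and HERC3 (0.987), a ubiquitin ligase gene. BNIP3 correlated with FAM162A at 0.986 and with BNIP3L at 0.887. FUNDC1 correlated negatively with BNIP3 (-0.848) and FAM162A (-0.897), although its own change in WT hypoxia was not called without or with the replicate block. The genes closest to FUNDC1 were ZNF446 (0.996), ZSCAN32 (0.984) and PARP12 (0.982). PINK1 was nearly unrelated to BNIP3 (0.168), and its closest genes were ROPN1 (0.994), SLC6A13 (0.994) and RARA-AS1 (0.992). BCL2L13 had CA5B (0.958), RBM26-AS1 (0.956) and CCT6B (0.952) nearest.

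The rest of the mitophagy machinery was read from 8 lists with 102 genes, of which 98 passed the filter. In WT hypoxia none was called by edgeR in the unpaired fit, and the median log2 fold change was -0.03 against -0.02 for all gene bodies. The 7 other mitophagy receptors, such as FKBP8 (log2 0.29) and PHB2 (-0.25), had no call without or with the replicate block, and neither did the 8 genes of mitochondrial fission and fusion. With the block 10 of the 98 were called higher and 3 lower in WT cells, where the same fit called 3.73% of all gene bodies higher and 1.77% lower, and no test set the lists against other genes. PIK3C3, the lipid kinase that starts autophagosome formation, had the smallest p, at 100.9 ± 16.3 CPM in WT normoxia and 174.0 ± 35.0 CPM in WT hypoxia (SD, n = 2; log2 0.79, adjusted p = 0.00239 with the block and 0.579 without).

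Among the 12 tested cargo adaptors and ATG8 proteins, the block called 4 higher and none lower: TAX1BP1 (log2 0.37), NBR1 (0.51), GABARAPL1 (0.62), which encodes an ATG8 protein, and MAP1LC3B2 (1.23), whose near-identical paralog MAP1LC3B could share its reads. Among 26 core autophagy genes it called 6 higher and none lower, with ULK2 (0.33), ATG13 (0.33), RB1CC1 (0.40), WIPI1 (0.52) and ATG10 (0.36) beside PIK3C3. The genes called lower with the block were TOMM40 (-0.48), a pore of the outer-membrane import machinery on which PINK1 depends, the phosphatase PGAM5 (-0.44), which acts on FUNDC1, and BID (-0.45). In HIF1A-/- hypoxia none of the 98 was called without or with the block, which called 0.03% of all gene bodies higher and 0.00599% lower. The remaining call without the block was a difference between the lines and not a response: ATG12, part of the conjugation system for ATG8, stood at 114.9 ± 14.1 CPM in WT normoxia and 300.2 ± 43.1 CPM in HIF1A-/- normoxia (SD, n = 2; log2 1.39, SE 0.25, adjusted p = 0.0488, edgeR). Of the 18 genes of the PINK1-Parkin axis and the 18 tested genes of the BCL2 family none was called in any comparison in the unpaired fit. With the block, between the genotypes in hypoxia, 2 genes of the PINK1-Parkin axis were higher and 1 lower in HIF1A-/- cells, as were 3 and 2 genes of the BCL2 family, and over all lists 13 were higher and 12 lower, against 13.1% and 15.1% of all gene bodies. Between the genotypes in normoxia the block called 5 listed genes higher and 1 lower, against 3.93% and 6.39% of all gene bodies. FAM162B, the paralog of FAM162A, did not pass the filter.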

How the data were processed

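PRO-seq counts of 8 HCT116 libraries (2 per group) were analysed. Per the labels and the methods, the authors aligned reads to GRCh37 with HISAT2 2.1.0, filtered them with SAMtools 1.5 and used featureCounts (Subread 1.6.2) on 1 TSS region and 1 gene body per gene. The deposited values are raw counts, with no normalization. Genes with CPM over 0.5 in at least 2 libraries were tested with edgeR 4.0.16 (R 4.3.3; TMM, quasi-likelihood test, 1 fit over all 4 groups, Benjamini-Hochberg over all genes, FDR 10%). For the pausing index, TSS and gene body counts entered 1 fit with a term for each library. Fold changes are edgeR estimates, levels are CPM or RPKM computed from the counts. Alternatives were DESeq2 1.42.0, other scalings and filters, each library left out, and a replicate block. Same-numbered libraries deviated together (r from 0.484 to 0.790 over gene bodies and from 0.216 to 0.519 over TSS regions, all pairs of groups), so the numbers were taken as pairs in the replicate block. The main fit left them unpaired, because the study's methods name no block. Replicates differed beyond counting noise (chi-square per degree of freedom 5.38 to 36.5) and none was a duplicate. The scripts were tested on simulated counts. The 6 genes, the lists and the comparisons were chosen with earlier results of these data known. Named genes were the 6, HIF1A, the 3 gene bodies most correlated with each, the nearest gene on each side, overlapping genes, and up to 4 called genes per list and comparison by smallest p; listed genes called only with the block were named after their values were seen.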

Additional observations from a re-analysis of the deposited data

Results flagged for a closer look

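The response to hypoxia differed between WT and HIF1A-/- cells by the interaction test for BNIP3 over the gene body (log2 difference 2.81, adjusted p = 0.0616 by edgeR) and for FAM162A over the gene body (2.66, adjusted p = 0.0616) and in the pausing index (-2.17, adjusted p = 0.0657). The FAM162A pausing index uses the same gene body counts, so its result is not independent of the gene body result. Within each replicate number the gene body changed 5.37-fold and 7.63-fold in WT against 0.849-fold and 0.987-fold in HIF1A-/- cells for BNIP3, and 4.60-fold and 6.90-fold against 0.948-fold and 0.866-fold for FAM162A.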

How the results depend on the processing

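With the replicate block no call in the unpaired fit was lost among the 6 genes, and 2 TSS regions were called in WT hypoxia (BNIP3L and FAM162A, against 0), 2 TSS regions between the genotypes in hypoxia (against 1) and 2 pausing indices in the interaction (against 1); over all gene bodies in WT hypoxia it called 623 higher and 296 lower, against 72 and 0, over all TSS regions 120 higher in WT hypoxia (against 7) and 1060 lower between the genotypes in hypoxia (against 101), and 20 pausing indices lower in the interaction (against 3). Without a filter the 3 counts of called members (TSS in WT hypoxia, TSS between the genotypes in hypoxia, pausing interaction) were 1, 2 and 2. Not every change of tool, scaling or filter kept the BNIP3L gene body call in WT hypoxia, whose unpaired adjusted p was 0.0847 (edgeR). Leaving out each library in turn, the members called ranged from 0 to 3 for the WT gene body, from 0 to 2 for its interaction, from 0 to 2 for the TSS between the genotypes in hypoxia and from 0 to 1 for the pausing interaction; the remaining library of the group was assumed to vary like the other groups. Signs turned only at values that were never called. The BNIP3 gene body difference between genotypes in normoxia was 8.16e-04 with DESeq2, 8.64e-04 with its size factors in edgeR and 0.0042 without a filter. Leaving out single libraries, it ran from -0.25 to 0.23, and that of BNIP3L from -0.81 to 0.50, of PINK1 from -0.30 to 0.80 and of BCL2L13 from -0.24 to 0.0756. In hypoxia the genotype difference ran from -0.43 to 0.46 for PINK1 and from -0.26 to 0.0557 for BCL2L13. The response in HIF1A-/- cells ran from -0.36 to 0.12 for BNIP3, from -0.28 to 1.13 for BNIP3L and from -0.065 to 1.10 for PINK1. The interaction ran from -0.41 to 0.77 for PINK1 and from -0.15 to 0.18 for BCL2L13, the BNIP3 TSS change in WT from -0.11 to 0.62, and the BNIP3L pausing change in WT from -0.82 to 0.57. The causes were not tested. The TSS region of BNIP3L held 2 to 68 reads, and it lies at an internal start 7335 bases downstream of the canonical one. Whether depth or the place of the region set these counts was not tested.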
